A study of Drosophila melanogaster with 12 samples.

Results

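The origin recognition complex (ORC) of Drosophila is encoded by 6 genes, Orc1, Orc2, lat (latheo, the gene of the subunit Orc3), Orc4, Orc5 and Orc6. All 6 were found by their symbols among the 14161 genes of the counts, and 5 of them had counts high enough to be tested. RNA was sequenced from whole embryos of the wild-type stock OregonR and from embryos laid by females with germline clones of SHMT[X238], a nonsense allele of the gene for serine hydroxymethyl transferase, which interconverts serine and glycine and feeds folate metabolism. Each genotype was collected in 2 windows after egg lay, given as 0–1 hr (preblastoderm) and as 1.5–2.5 hr (late blastoderm). There were 4 groups of 3 libraries. No label names a treatment or a batch.

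Some limits of these groups apply to every comparison. In the SHMT embryos the oocyte and nurse cells were mutant while the mother was heterozygous, so the maternal supply of SHMT was removed or strongly reduced. The gene lies on the X chromosome, and the study describes only the female embryos as zygotically heterozygous. Male embryos thus also lacked a zygotic wild-type copy, and no sorting of embryos by sex is described. The clones were induced by heat shock of the larvae that became the mothers, through a heat-shock Flp recombinase, and selected with ovo[D]; no such treatment is described for OregonR. The X238 chromosome carries further markers and the recombination elements used to make clones, which OregonR lacks, and allele, stock background and the heat shock of the mothers cannot be told apart. Embryos were grouped by time after egg lay and not by nuclear cycle. The study calls its triplicates biological. No source says whether the 3 libraries of a group came from separate parents, and p-values measure the spread between these libraries.

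ORC marks the sites where DNA replication can start. Together with Cdc6 and the Cdt1 protein (in flies the product of dup), it loads the MCM helicase onto DNA, a step called licensing, and Cdc7 kinase, Cdc45 and the GINS complex then turn the loaded helicase on. In flies Orc1 is the regulated subunit, since its transcription responds to E2F and its protein is destroyed through the anaphase-promoting complex with Fizzy-related, while Orc6 also acts with the septin Peanut in cytokinesis. The early fly embryo replicates its nuclei in a common cytoplasm in very short cycles that run on stores laid down by the mother.

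Reads counted in genes numbered 21045142 to 35106444 per library (12 libraries). Levels are given as CPM, the counts of a gene relative to all gene counts of its library, with library sizes scaled by the trimmed mean of M values (TMM), so that each is a share of the counted RNA and not an amount per embryo. No 2 replicates looked like copies of 1 library. Replicates were compared by the mean squared difference of their counts relative to the sampling variance, a ratio that also grows with read depth. In the SHMT group labelled 0–1 hr, replicate 3 stood apart, with ratios of 55.7 and 60.1 to the other 2, against 11.6 between those 2. The 3 wild-type libraries with that label were as far from one another (ratios of 51.0 to 62.7), against 11.4 to 14.8 for wild type and 21.0 to 42.1 for SHMT at the 1.5–2.5 hr label. Reads outside genes made up 4.57 to 11.7% of a library and passed 11% in replicate 1 of both groups labelled 0–1 hr. The X238 mutation changes a codon and need not change the RNA level: SHMT (CG3011) stood at 3.38 to 4.67 CPM for wild type and 5.57 to 7.37 CPM for SHMT with the 0–1 hr label. The gene pn, a marker on the mutant chromosome, separated the genotypes, with 38.5 to 57.3 CPM in all 6 wild-type and 1.14 to 4.01 CPM in all 6 SHMT libraries.

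The stage labels ran against the stage markers. The summed level of 12 early zygotic RNAs (eve, ftz, run and others) was 8426 to 12123 CPM for wild type and 4610 to 8541 CPM for SHMT at the 0–1 hr label, but 179 to 276 and 159 to 259 CPM at the 1.5–2.5 hr label. The summed level of 10 maternal RNAs that are cleared in the early embryo (nos, osk, bcd and others) was 1447 to 1897 and 1712 to 2570 CPM at the 0–1 hr label, and 5434 to 5641 and 4934 to 5076 CPM at the 1.5–2.5 hr label. Zygotic RNAs were thus high and maternal RNAs low in the libraries labelled as the earlier ones, in both genotypes. None of these 22 genes was at 0 in a group. Groups are called by their labels throughout. Exchanging the labels would turn the sign of every difference between labels and swap the genotype comparisons. Eggshell genes of follicle cells (8 genes) summed to at most 4.68 CPM and genes of differentiated tissues (7 genes) to at most 7.70 CPM in any library. The latter sum was 4.62 to 7.70 CPM for wild type and 1.38 to 1.72 CPM for SHMT at the 0–1 hr label, and 0.477 to 6.25 CPM at the other. Of these 7 genes only Mlc2, a muscle myosin light chain gene, had counts high enough to be tested, and it was at 2.43 to 3.26 CPM for wild type and 0.0476 to 0.103 CPM (1 to 2 counts) for SHMT at the 0–1 hr label, lower as Orc1 was. It is named after its values were seen, and the part of these genes in the ORC differences was not tested.

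Orc1, the regulated subunit and an ATPase, had the highest level of the ORC RNAs per kb of exon in all 12 libraries. Its level at the 0–1 hr label was 285, 377 and 508 CPM in the 3 wild-type libraries and 90.1, 99.5 and 114.5 CPM in those of SHMT. The lowest wild-type library was above the highest SHMT library, and the wild-type libraries spread far more among themselves. Under the other label Orc1 stood at 504, 479 and 466 CPM for wild type and at 317, 265 and 277 CPM for SHMT. Again every SHMT library was below every wild-type library, by a smaller margin.

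Orc2, a core subunit, had few counts in both groups labelled 0–1 hr. It had 3.34, 1.28 and 2.43 CPM for wild type, from only 88, 23 and 49 counts, and 2.86, 3.18 and 3.24 CPM for SHMT, from 60 to 70 counts. The genotypes overlapped there, and wild-type replicate 1 was above all 3 SHMT libraries. Orc2 in the 1.5–2.5 hr libraries was at 111, 123 and 117 CPM for wild type and 112, 111 and 101 CPM for SHMT, with overlapping libraries.

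Orc4, an ATPase-type core subunit, had few counts for wild type at the 0–1 hr label as well, with 0.986, 1.23 and 1.04 CPM (26, 22 and 21 counts). In the SHMT libraries with that label it was at 2.95, 3.08 and 2.99 CPM (62, 68 and 58 counts), above every wild-type library. The 1.5–2.5 hr libraries held 78.1, 85.7 and 88.4 CPM for wild type and 80.8, 77.6 and 74.1 CPM for SHMT, and overlapped.

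Orc5, also of the ATPase-type core, was measured at 12.7, 10.8 and 10.5 CPM for wild type and 17.6, 17.8 and 18.7 CPM for SHMT at the 0–1 hr label. SHMT was higher there without overlap. The order was reversed at the 1.5–2.5 hr label, where wild type held 67.9, 76.1 and 73.1 CPM and SHMT 55.4, 53.8 and 52.1 CPM, again without overlap.

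Orc6, the smallest subunit, whose fold resembles the transcription factor TFIIB, was at 19.2, 15.9 and 15.9 CPM for wild type and 24.2, 23.5 and 23.9 CPM for SHMT at the 0–1 hr label. All 3 SHMT libraries were higher than the wild-type ones. In the 1.5–2.5 hr groups it was at 43.8, 45.9 and 43.9 CPM for wild type and 44.0, 51.4 and 49.7 CPM for SHMT, with overlap.

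**Figure D1:**
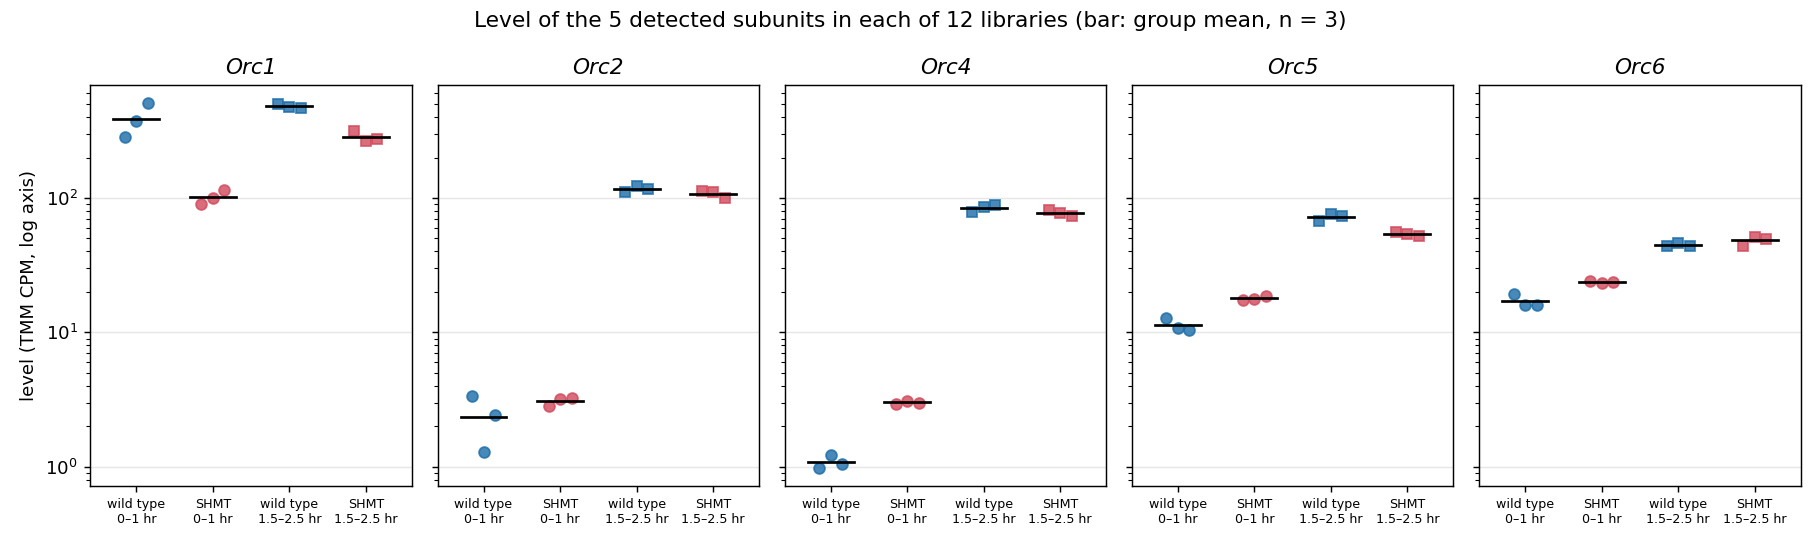
Level of each detected ORC gene (vertical axis, TMM CPM, log scale) in each library of the 4 groups (blue, wild type; red, SHMT; circles, 0–1 hr label; squares, 1.5–2.5 hr label), with a bar at each group mean (n = 3). Orc1 is the only panel in which the SHMT points labelled 0–1 hr lie below the wild-type points with that label, at 90.1 to 114.5 against 285 to 508 CPM.

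The sixth gene, lat, had 0 counts in all 12 libraries. A count of 0 allows a level of up to 3 counts, 0.0746 to 0.167 CPM on the TMM scale depending on the library, and this limit covers counting error only. Its level cannot be read from that. In the annotation of BDGP6, which is a later build than the dm3 used for the alignment, lat lies on chromosome arm 2R and shares its start, end and strand with CG34315, a second gene of the same span, which was also at 0 in all 12 libraries. Of 226 protein-coding genes in the counts that share span and strand with another gene in BDGP6, 172 (76.1%) were at 0 in all 12 libraries, against 1512 of 12951 (11.7%) other protein-coding genes. Reads that fitted several genes were set aside in the deposited counts and made up 1.33 to 1.53% of a library. The genes on both sides of lat were counted, with 121 to 3247 counts for Aats-val, the valyl-tRNA synthetase gene, and 1455 to 2680 counts for FLASH. ORC is therefore described below from 5 of its 6 genes.

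The genotypes were compared first at the 0–1 hr label. Orc1 was 3.84-fold lower in SHMT while Orc4, Orc5 and Orc6 were higher, by 2.77-, 1.59- and 1.41-fold. With edgeR's quasi-likelihood test and Benjamini-Hochberg adjustment over 6884 genes, Orc1 differed by a log2 of −1.94 (SE 0.18, adjusted p = 5.77e-06). Orc4 differed by 1.48 (SE 0.13, adjusted p = 4.12e-06), Orc5 by 0.66 (SE 0.09, adjusted p = 0.000133) and Orc6 by 0.49 (SE 0.10, adjusted p = 0.00131). For Orc2 the log2 difference of 0.35 did not pass (adjusted p = 0.224), with a 95% interval of −0.17 to 0.87.

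Of the 5 tested subunits, 3 were thus called higher and 1 lower, where 32.9% of all tested genes were called higher and 25.8% lower. Calls were common at this label, so the count of ORC calls says little by itself. The opposite directions of Orc1 and 3 of its partners are a description, since the genes were chosen with earlier results of these data known. The median log2 difference was 0.49 over the 5 subunits and 0.02 over all tested genes. None of the 4 differences reached 4-fold in the fit, as 2.70% of tested genes did upward and 1.38% downward with an adjusted p under 0.05. Without replicate 3 of the SHMT group, which stood apart, Orc1 was at −2.04, Orc4 at 1.49, Orc5 at 0.64 and Orc6 at 0.49, and all 4 stayed called. Without wild-type replicate 1, 2 or 3, which were as far apart, Orc1 was at −2.13, −1.97 and −1.72, and all 4 stayed called as well. Without the 2 libraries with over 11% of reads outside genes they were at −1.97, 1.50, 0.85 and 0.65, and Orc2 became a call at 0.85 (adjusted p = 0.0150). Leaving out wild-type replicate 1 alone had a like effect on Orc2 (0.71, adjusted p = 0.0162).

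Stage markers were counted in this comparison as well. At the 0–1 hr label 6 of 12 zygotic RNAs were called lower in SHMT (4 by DESeq2). None was called higher (at an unadjusted p under 0.05 also 0, and by DESeq2 0). Of 10 maternal RNAs 3 were called higher and 0 lower (1 at an unadjusted p under 0.05, and 2 by DESeq2). Among all tested genes 32.9% were called higher and 25.8% lower, so the count of higher maternal RNAs is near that share. The summed maternal level of SHMT replicate 3, 1712 CPM, was inside the range of the wild-type libraries (1447 to 1897 CPM), and its zygotic sum of 8541 CPM was above the lowest wild-type value of 8426 CPM. In that library Orc4 was at 2.99 CPM and Orc1 at 114.5 CPM, the highest Orc1 level among the SHMT libraries with this label. A single library cannot separate embryo age from genotype. The part of embryo age in the ORC differences was not tested. Fewer nuclei and less RNA per nucleus cannot be told apart in whole-embryo RNA.

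**Figure D2:**
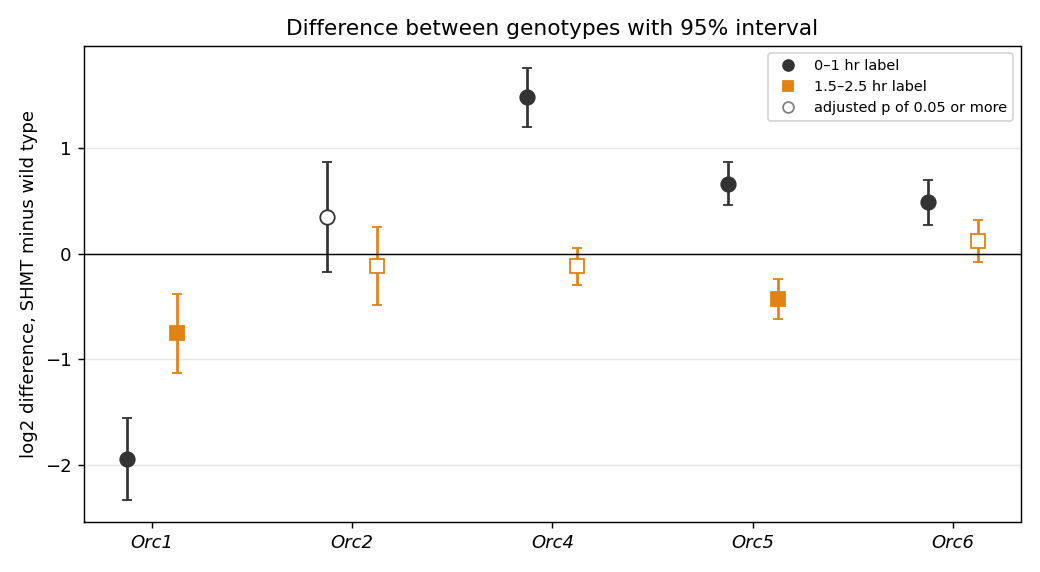
Fitted log2 difference between SHMT and wild type (vertical axis) for each of the 5 tested ORC genes at both labels (circles, 0–1 hr; squares, 1.5–2.5 hr), with 95% intervals, and open symbols where the adjusted p was 0.05 or more. Orc1 lies below 0 at both labels, at −1.94 and −0.76, while Orc4, Orc5 and Orc6 have filled circles above 0, at 1.48, 0.66 and 0.49.

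At the 1.5–2.5 hr label the genotypes differed less. Orc1 was 1.69-fold lower in SHMT, a log2 difference of −0.76 (SE 0.17, adjusted p = 0.0197 by edgeR's quasi-likelihood test), and Orc5 was 1.35-fold lower, at −0.43 (SE 0.09, adjusted p = 0.0103). The other 3 did not pass, with log2 differences of −0.11 for Orc2 (95% interval −0.48 to 0.25), −0.12 for Orc4 (−0.29 to 0.06) and 0.12 for Orc6 (−0.08 to 0.32). Of the 5 subunits 2 were therefore called lower and 0 higher (0 also at an unadjusted p under 0.05 and by DESeq2). Among all tested genes 4.15% were called lower and 2.85% higher, with 0.523% and 0.654% also past 4-fold. Both calls were close to the threshold. Orc1 lost its call without wild-type replicate 1 or 2 or without SHMT replicate 2 or 3 (adjusted p = 0.0618 to 0.0842), and Orc5 without wild-type replicate 2 (adjusted p = 0.0616) or SHMT replicate 3 (adjusted p = 0.0577).

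The labels were then compared within each genotype. By the marker sums above, the libraries labelled 1.5–2.5 hr held more maternal and less zygotic RNA in both genotypes. Higher, rise and fall toward that label therefore name the direction of the labels and not of development. In wild type, 4 of the 5 subunits were higher at the 1.5–2.5 hr label. Orc4 was 77.4-fold higher, a log2 difference of 6.28 (SE 0.11, adjusted p = 1.88e-11 by edgeR's quasi-likelihood test), and Orc2 49.6-fold, at 5.59 (SE 0.22, adjusted p = 3.19e-10). Orc5 and Orc6 differed by much less, 6.38-fold (log2 2.67, SE 0.09, adjusted p = 1.66e-10) and 2.62-fold (log2 1.39, SE 0.10, adjusted p = 2.88e-08). All 4 had no overlap between the labels, and the share of all tested genes without overlap was not counted. In all, 45.4% of tested genes were called higher and 45.9% lower, so that a call is the rule here, and 11.7% were higher and 4.71% lower by over 16-fold. Orc2 and Orc4 were among the former.

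Orc1 again stood aside in wild type. Its libraries overlapped between the labels, with 508 CPM in 0–1 hr replicate 3 above all 1.5–2.5 hr libraries, and the log2 difference of 0.31 did not pass (95% interval −0.07 to 0.68, adjusted p = 0.105). That result depended on the settings. Without wild-type replicate 3 of the 0–1 hr label the difference was 0.58 (adjusted p = 0.00203), and with library sizes alone, which moved the median of all tested genes from −0.04 to 0.48, it was 0.83 (adjusted p = 0.000327). It was also called with a minimum of 1 count (0.52, adjusted p = 0.00830) and with edgeR's filterByExpr (0.43, adjusted p = 0.0297).

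In SHMT all 5 subunits were called higher at the 1.5–2.5 hr label, where 42.8% of tested genes were called higher and 44.6% lower. Orc2 was 34.9-fold higher (log2 5.12, SE 0.21) and Orc4 25.8-fold (log2 4.68, SE 0.10), followed by Orc5 at 2.98-fold (log2 1.58, SE 0.09), Orc1 at 2.82-fold (log2 1.50, SE 0.18) and Orc6 at 2.03-fold (log2 1.02, SE 0.09). Their adjusted p ranged from 1.22e-10 for Orc4 to 4.88e-06 for Orc1 by edgeR's quasi-likelihood test. No library labelled 0–1 hr reached the level of one labelled 1.5–2.5 hr for any of the 5, and how many of all tested genes show this was not counted. Over 16-fold, 5.48% of tested genes were higher and 3.99% lower, with Orc2 and Orc4 again among the former.

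The change between the labels was compared between the genotypes by an interaction term, the SHMT change minus the wild-type change. For Orc1 the interaction was 1.19 (SE 0.24, adjusted p = 0.00300 by edgeR's quasi-likelihood test), a larger rise toward the 1.5–2.5 hr label in SHMT. For Orc4 it was −1.60 (SE 0.15, adjusted p = 2.68e-05) and for Orc5 −1.09 (SE 0.13, adjusted p = 9.15e-05), a smaller rise in SHMT. Orc6 passed narrowly at −0.37 (SE 0.13, adjusted p = 0.0467) and lost its call in DESeq2 (adjusted p = 0.126) and in 10 of 12 fits without 1 library (adjusted p up to 0.103). Orc2 did not pass, at −0.46 (95% interval −1.10 to 0.17), but did without wild-type replicate 1 of the 0–1 hr label (−0.82, adjusted p = 0.0223). In all, 1 of 5 subunits was called positive and 3 negative, where 12.2% of tested genes were positive and 26.3% negative (0.712% and 2.50% past 4-fold). The interaction and both genotype comparisons are made from the same libraries and are not separate evidence.

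Levels of different subunits were compared per kb of exon, with the length of the merged exons of each gene in BDGP6: 3152 bases for Orc1, 1995 for Orc2, 1615 for Orc4, 1687 for Orc5 and 972 for Orc6. In the wild-type libraries labelled 0–1 hr, Orc1 was at 124 ± 35.7 CPM per kb (SD, n = 3). It was followed by Orc6 at 17.5 ± 2.0, Orc5 at 6.72 ± 0.71, Orc2 at 1.18 ± 0.52 and Orc4 at 0.672 ± 0.078 CPM per kb. Each step in that order was larger than the spread of the libraries except between Orc2 and Orc4, which overlapped.

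In SHMT at the same label Orc1 was at 32.2 ± 3.9 CPM per kb and Orc6 next at 24.6 ± 0.4, so the 2 came close without overlapping. Orc5 had 10.7 ± 0.4, Orc4 1.86 ± 0.04 and Orc2 1.55 ± 0.10 CPM per kb, all apart. Orc1 made up 82.6% of the summed mean level per kb of the 5 subunits in wild type and 45.4% in SHMT at this label. Orc6 took 11.7% in wild type and 34.7% in SHMT. The ORC RNAs of the SHMT group were thus spread more evenly over Orc1 and Orc6, with Orc2 and Orc4 at 2.19 and 2.63%.

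At the 1.5–2.5 hr label the subunits were closer to each other. Orc1 led with 153 ± 6.0 CPM per kb in wild type (43.5% of the sum) and 90.8 ± 8.7 in SHMT (33.1%). In wild type Orc2 followed at 58.5 ± 3.0, Orc4 at 52.1 ± 3.3, Orc6 at 45.8 ± 1.2 and Orc5 at 42.9 ± 2.5 CPM per kb, the last 2 overlapping. In SHMT the order was Orc2 at 54.0 ± 3.2, Orc6 at 49.8 ± 4.0, Orc4 at 48.0 ± 2.1 and Orc5 at 31.9 ± 1.0 CPM per kb, with overlap of Orc6 with both neighbours and Orc5 apart at the bottom. With coding length in place of exon length, Orc1 still led in all 4 groups and SHMT at the 1.5–2.5 hr label had Orc6 before Orc2.

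The balance of Orc1 against the other subunits was also taken within each library, as the log2 ratio of its CPM to the median CPM of the other 4 detected subunits (lat, at 0, was left out). For wild type with the 0–1 hr label that ratio was 5.45, 6.66 and 6.65, and for SHMT it was 3.64, 3.73 and 3.88. With the 1.5–2.5 hr label it was 2.79, 2.57 and 2.54 in wild type and 2.24, 2.03 and 2.16 in SHMT. The 4 groups did not overlap, and SHMT was below wild type at both labels. A ratio within a library does not depend on how libraries are scaled, but it does not tell which of its terms moved.

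**Figure D3:**
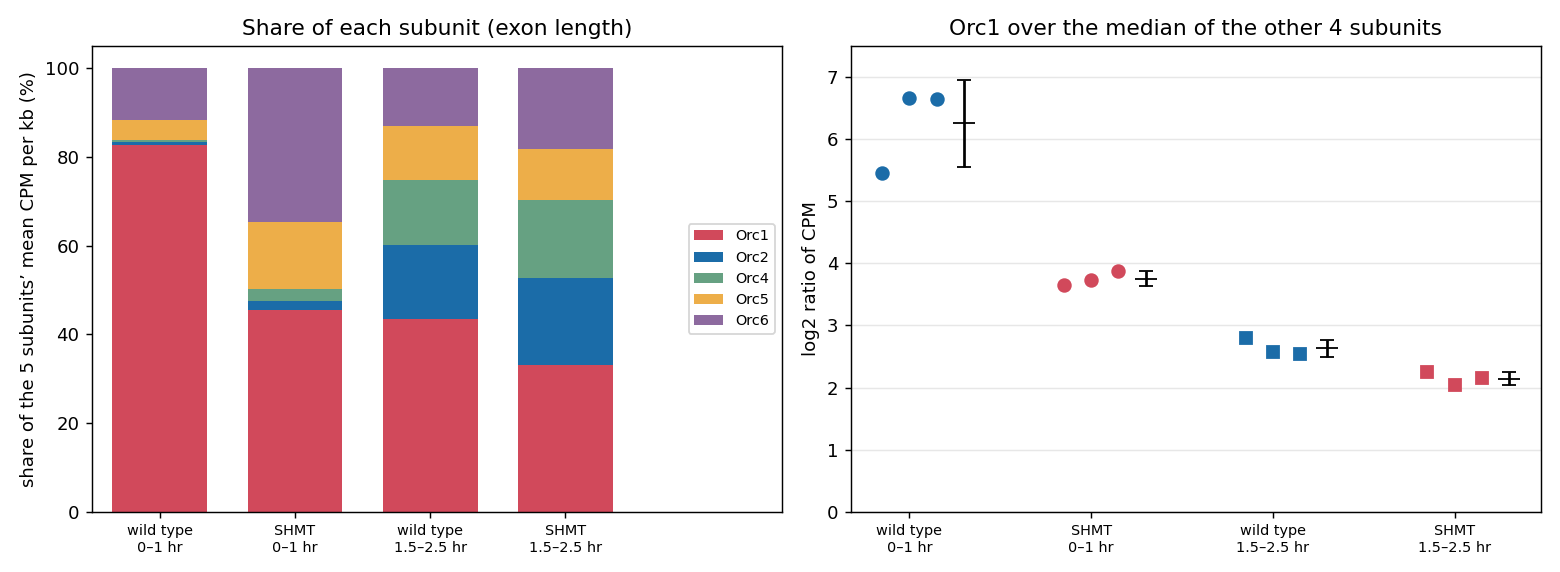
Left, share (vertical axis, %) of each of the 5 detected ORC genes in their summed mean CPM per kb of exon in each group. Right, log2 ratio of Orc1 CPM to the median CPM of the other 4 in each library (blue, wild type; red, SHMT), with mean and SD (n = 3) beside the points. The Orc1 share is 82.6% in wild type labelled 0–1 hr and 33.1 to 45.4% in the other 3 groups, and the ratio is highest in the same group, at 5.45 to 6.66.

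Across the 12 libraries, the profiles of Orc2, Orc4, Orc5 and Orc6 followed each other closely, with a Pearson's r of log2(CPM + 1) of 0.965 to 0.992 for their pairs, whereas Orc1 correlated with them at 0.248 to 0.485. These values describe the 12 libraries, which fall into 4 groups with a large difference between the labels, and carry no test. The tested genes most like Orc1 were cher, which encodes the actin crosslinker filamin (r = 0.970), TepIV, a thioester-containing protein gene (0.963), and CG32556 (0.959).

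Like Orc1, cher was lowest in a single group. It was at 60.6, 67.5 and 102 CPM for wild type and 11.5, 11.9 and 14.4 CPM for SHMT at the 0–1 hr label, and at 101, 109 and 112 CPM and 98.9, 56.3 and 83.4 CPM at the 1.5–2.5 hr label. Both cher and Orc1 were thus lowest in the SHMT libraries labelled 0–1 hr. Since cher was chosen for its likeness to Orc1 in these libraries, its values are a description.

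The genes nearest to the other subunits were chosen by the same measure, which the label difference dominates, so that their rise toward the 1.5–2.5 hr label follows from the choice. Closest to Orc2 were lds, Wnk and eIF-2beta (r = 0.999 each), the last a subunit gene of a translation initiation factor. Closest to Orc4 were CG1675, fs(1)N and CG15717 (r = 0.999 each), and fs(1)N, for example, was at 1.12 to 1.40 CPM for wild type and 3.38 to 4.94 CPM for SHMT at the 0–1 hr label, against 118 to 159 CPM in the 6 libraries of the other label. Closest to Orc5 were CG9531, CG14667 and CG34415 (r = 0.996 to 0.997), and to Orc6 S1P, CG11247 and CG40045 (r = 0.994 to 0.995).

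Each subunit gene was also checked for neighbours whose reads it could share, since no source used here says whether counting used the strand. In BDGP6, Orc1, Orc4 and Orc6 lie on arm 2R like lat, Orc2 on 3R and Orc5 on 2L, and the 5 genes each overlap another gene on the opposite strand, by 105 bases (Orc1 with CG2144), 15 (Orc2 with rdx), 33 (Orc4 with an antisense RNA gene that the counts do not list), 95 (Orc5 with DNApol-gamma35 and CG33649, both at 0 counts) and 55 (Orc6 with CG1667). The partner of Orc1 moved the other way, with CG2144 at 5.02 to 5.71 CPM for wild type and 9.90 to 11.98 CPM for SHMT at the 0–1 hr label, a log2 difference of 1.04 (adjusted p = 8.95e-06 by edgeR's quasi-likelihood test). The partner of Orc2, rdx, which encodes an adaptor of a ubiquitin ligase, was at 56.5 to 79.1 CPM for wild type and 175 to 335 CPM for SHMT. The part of partner reads in the low Orc2 counts of these libraries was not tested.

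The genes that work with ORC in licensing moved in both directions. Of 9 licensing genes (Cdc6, dup, geminin and the 6 MCM genes), all tested, 3 were called higher and 2 lower in SHMT at the 0–1 hr label, with a median log2 difference of −0.07 against 0.02 over all tested genes, of which 32.9% were called higher and 25.8% lower. Mcm2, a helicase subunit gene, had the lowest adjusted p. It was at 26.7, 29.2 and 27.8 CPM for wild type and 89.2, 99.5 and 86.8 CPM for SHMT, a log2 difference of 1.72 (SE 0.08, adjusted p = 5.68e-08 by edgeR's quasi-likelihood test). dpa, the Mcm4 gene, followed at 0.37 (adjusted p = 0.0217), and Mcm5 at 0.21 (adjusted p = 0.0346).

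Cdc6, which binds ORC and shares sequence with Orc1, fell between these patterns. It was at 571, 538 and 652 CPM for wild type and 355, 348 and 507 CPM for SHMT at the 0–1 hr label, lower in all 3 SHMT libraries, by −0.54 (SE 0.13, adjusted p = 0.00445 by edgeR's quasi-likelihood test). Mcm7 was lower by −0.31 (adjusted p = 0.00366). In wild type, Cdc6 fell by 1.53 and Mcm7 by 1.48 on the log2 scale toward the 1.5–2.5 hr label, whereas Mcm2, dpa and Mcm5 rose by 3.38, 2.30 and 1.34. Of the 9 genes 5 were called higher and 3 lower in that comparison, and the same numbers held in SHMT. Among all tested genes 45.4% were called higher and 45.9% lower in wild type, and 42.8% and 44.6% in SHMT. None of the 9 was called between genotypes at the 1.5–2.5 hr label (0 also at an unadjusted p under 0.05, and 0 by DESeq2). Only 2.85% of all tested genes were called higher and 4.15% lower there, so that 0 of 9 is near the background.

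Of the 10 origin firing genes, which act after licensing, 8 were called higher in SHMT at the 0–1 hr label and 1 lower (chif, a gene for the Dbf4-like partner of Cdc7), where 32.9% of all tested genes were higher and 25.8% lower. Their median log2 difference was 0.70, against 0.02 over all tested genes, and the list as a whole was not tested. CDC45L was at 2.81, 2.62 and 2.78 CPM for wild type and 4.62, 10.2 and 7.16 CPM for SHMT, a log2 difference of 1.42 (SE 0.23, adjusted p = 0.000312 by edgeR's quasi-likelihood test). Mcm10 was higher by 0.91 (adjusted p = 5.48e-06), and RecQ4 and l(1)G0148, the Cdc7 kinase gene, by 0.79 each (adjusted p = 0.000181 and 0.000140).

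In wild type, 7 of the 10 rose and 3 fell toward the 1.5–2.5 hr label, in a comparison where 45.4% of all tested genes were called higher and 45.9% lower. mus101, the gene of the TopBP1 protein, rose by 7.14, CDC45L by 6.76, l(1)G0148 by 3.92 and RecQ4 by 3.55 on the log2 scale (adjusted p at most 1.53e-10). mus101 and CDC45L were below 3 CPM in every wild-type library labelled 0–1 hr and at 100 to 309 CPM in those labelled 1.5–2.5 hr. By the interaction, 8 of the 10 were called negative and 0 positive (0 also at an unadjusted p under 0.05 and by DESeq2), where 26.3% of all tested genes were negative and 12.2% positive. At the 1.5–2.5 hr label 1 gene was called between genotypes, l(1)G0148 at −0.38 (adjusted p = 0.0497 by edgeR's quasi-likelihood test). Among all tested genes 4.15% were called lower and 2.85% higher there.

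Of 11 regulators and partners of ORC, 2 were called higher and 4 lower in SHMT at the 0–1 hr label, with a median of −0.10. With 32.9% of all tested genes higher and 25.8% lower, these counts are near the background. rap, the gene of Fizzy-related, through which Orc1 protein is destroyed, was at 17.8, 11.8 and 17.2 CPM for wild type and 35.6, 36.2 and 23.7 CPM for SHMT, higher without overlap by 1.02 (SE 0.18, adjusted p = 0.000680 by edgeR's quasi-likelihood test). Rbf, the retinoblastoma-family repressor of E2F, was higher by 0.75 (adjusted p = 0.00170), at 14.8 to 22.1 CPM for wild type and 25.8 to 32.8 CPM for SHMT. E2f and Dp did not pass, with E2f at 59.9 to 91.9 CPM for wild type and 87.2 to 113 CPM for SHMT. Dp was at 384 to 465 and 362 to 425 CPM. Besides E2f, no E2F gene was in the list.

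Among the partners, pnut, the septin gene whose product binds Orc6, was lower in SHMT by −0.94 (adjusted p = 0.00217 by edgeR's quasi-likelihood test), opposite to Orc6. Its level was 982, 783 and 1185 CPM for wild type and 425, 401 and 711 CPM for SHMT at the 0–1 hr label. mip130, of the Myb complex that acts with ORC at amplified origins, was lower by −1.05 (adjusted p = 0.000685). In wild type, Rbf and rap rose by 3.73 and 2.86 toward the 1.5–2.5 hr label and mip40, also of the Myb complex, fell by 1.40 on the log2 scale, in a list with 4 called higher and 7 lower. At the 1.5–2.5 hr label none of the 11 was called between genotypes (1 at an unadjusted p under 0.05, and 0 by DESeq2). With 2.85% of all tested genes called higher and 4.15% lower there, this count is near the background.

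**Figure D4:**
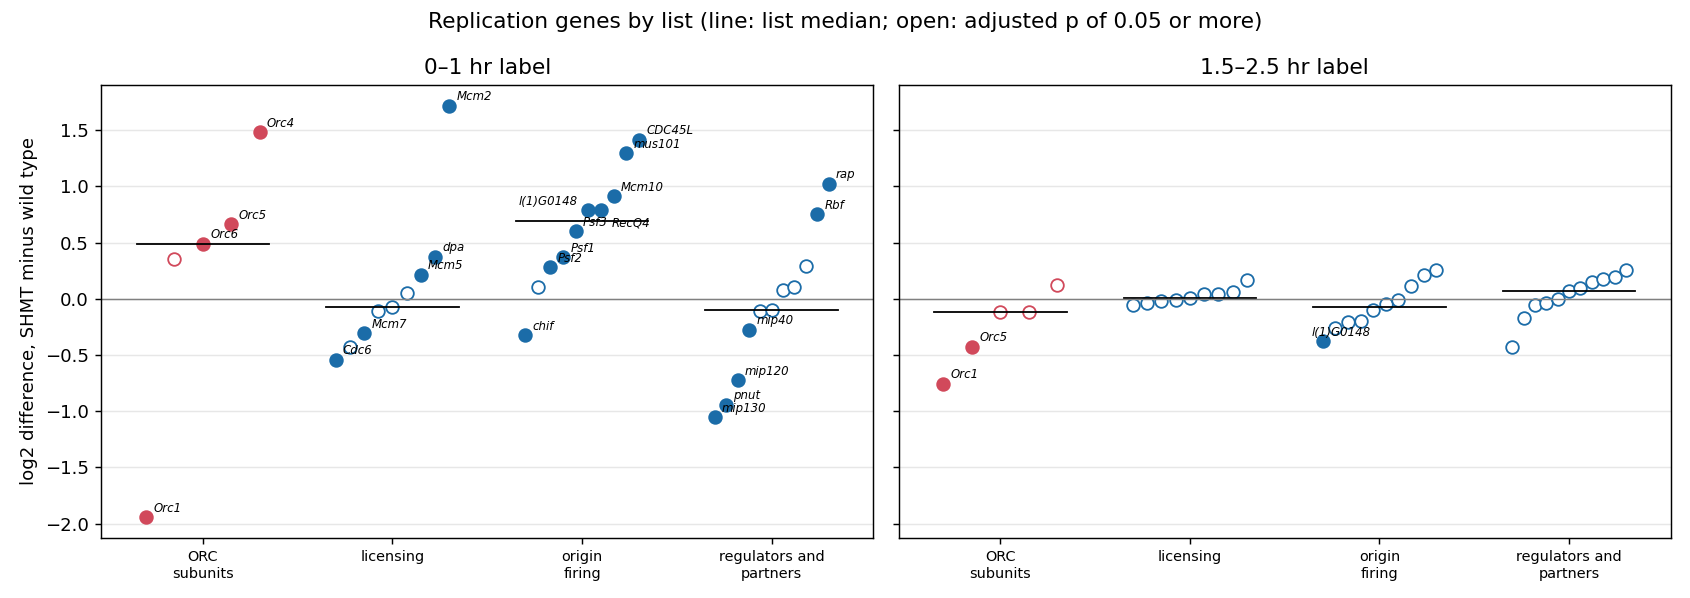
Fitted log2 difference between SHMT and wild type (vertical axis) for the 5 ORC subunits (red) and the genes of 3 lists (blue) at the 0–1 hr label (left) and the 1.5–2.5 hr label (right), with a line at each median and open circles where the adjusted p was 0.05 or more. Orc1, at −1.94, lies below every other gene shown at the 0–1 hr label, the origin firing genes have a median of 0.70 there, and on the right 3 genes are filled, Orc1, Orc5 and l(1)G0148.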

How the data were processed

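The authors deposited counts for each library, the number of reads that HTSeq (version not given in the sources used here) assigned to each gene, after CASAVA 1.8.2 and alignment to dm3 with Bowtie2 2.1.0, per the submitters' processing notes. Whether counting used the strand is not given in the sources used here. The 5 summary lines of each table, 4.57 to 11.7% (outside genes) and 1.33 to 1.53% (ambiguous) of reads among them, stayed out of library sizes and tests. Of 14161 symbols 10669 were current, 3235 matched 1 synonym and 257 were not matched to BDGP6, which gave names, arms, lengths and neighbours.

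Genes averaging 50 counts or more in any group (6884) were tested with edgeR 4.0.16 and limma 3.58.1 (R 4.3.3), a quasi-likelihood fit to all 12 libraries with TMM scaling and 4 group means, 2-sided. Benjamini-Hochberg adjustment covered all tested genes, and a call is an adjusted p under 0.05. SE and 95% intervals come from the fit. The 6 genes and the lists were chosen with earlier results of these data known. Named are the 6 genes, the 3 genes with the most similar profile of each, the genes that overlap or adjoin them, and up to 4 genes per list, by lowest adjusted p in the genotype comparison at the 0–1 hr label and in the comparison of labels in wild type. Further list members, with Mcm5 and chif among them, E2f, Dp, cher's levels, Mlc2 and the marker genes were named to complete a count. Alternatives tried were other scalings, filters and thresholds, DESeq2 1.42.0, only the groups compared, a replicate block, each library left out, and omission of the 2 libraries where reads outside genes passed 11%. The fit was tested on simulated counts. Plots were made in Python 3.11.15 with matplotlib 3.10.9.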

Additional observations from a re-analysis of the deposited data

Results flagged for a closer look

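The change between the labels differed between the genotypes for 4 of the 5 tested subunits, by the interaction in edgeR's quasi-likelihood test (SHMT change minus wild-type change, log2). The difference was 1.19 for Orc1, −1.60 for Orc4, −1.09 for Orc5 and −0.37 for Orc6, so that Orc1 had the opposite sign to the other 3. Of all tested genes, 12.2% were called positive and 26.3% negative by this interaction, so that calls were common. Over 22 alternatives the value ranged from 0.95 to 1.37 for Orc1, from −1.84 to −1.51 for Orc4, from −1.33 to −1.002 for Orc5 and from −0.61 to −0.28 for Orc6. The Orc6 value is the least secure, since it stayed on its side of the threshold in 6 of those alternatives.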

How the results depend on the processing

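No subunit's called difference changed direction under any alternative run. With an adjusted p under 0.01, 0 subunits were called lower at the 1.5–2.5 hr label in place of 2. With a fold threshold added (4-fold for genotype and interaction, 16-fold between labels), the 0–1 hr label gave 0 subunits in SHMT above and 0 below wild type, the count of lower subunits at the 1.5–2.5 hr label was 0, those of the interaction were 0 positive and 0 negative, and 2 (Orc2 and Orc4) stayed higher between labels in wild type and 2 in SHMT. Without 1 library at a time the number lower at the 1.5–2.5 hr label ranged from 0 to 2. It was 0 without wild-type replicate 2 or SHMT replicate 3, and 1 without wild-type replicate 1 or SHMT replicate 2. Deviations of same-numbered libraries correlated at −0.30 to 0.39. Between genotypes the values were 0.20 to 0.39 for replicates 2 and 3, and −0.11 and −0.28 for replicate 1. A pairing by replicate number is therefore neither shown nor excluded. With a replicate block only the Orc6 interaction left its side of the threshold, at −0.37 (adjusted p = 0.0721 by edgeR's quasi-likelihood test). Library sizes alone moved the median of all tested genes to 0.25 between genotypes at the 0–1 hr label and to 0.48 between labels in wild type; the ORC directions stayed. The log2 ratio of Orc1 to the other subunits in SHMT at the 0–1 hr label was 3.75, and 3.52 with 1 CPM added.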
